A study of Arabidopsis thaliana with 14 samples.

Results

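The circRNAs described here are all those listed for the mixed lifespan library of Arabidopsis thaliana, 1217 intervals of the 5861 in the series. This single library was made from wild type Columbia-0 plants. Equal amounts of whole plant RNA from 7 growth stages were joined in it, namely cotyledons emergence, rosette leaves of 1 mm, completed rosette growth, the first open flower, flourishing florescence, the first shattered silique and senescence. The plants grew at 23 °C by day and 18 °C by night, with 16 h of light and 8 h of darkness. The methods of the study give rosette plants as its youngest stage, so the earliest plants in the pool are uncertain. No treatment or mutation separates this library from a control, and it had no replicate, so every value below is a description of 1 library and no difference was tested against a spread between libraries. Since the stages were pooled before the library was made, no circRNA can be assigned to a stage or an organ.

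CircRNAs are closed RNA rings. Most known ones arise by back-splicing, in which the spliceosome joins the 3′ end of an exon to the 5′ end of the same or an upstream exon. A sequencing read across this joint, the back-spliced read, runs through both exon ends in reversed order and is the evidence on which such circRNAs are called. The exonuclease RNase R, which digests linear RNA and spares most rings, was applied to this RNA after ribosomal RNA was removed. The counts therefore say how many back-spliced reads were seen after this enrichment, not how much of a gene's RNA was circular.

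The joints of 6 circRNAs are shown first, because the main kinds of circRNA in this library differ at these ends. Each sequence is written 5′ to 3′ on the listed strand and holds the last 20 bases of the circRNA in lower case followed by its first 20 bases in capitals, so that the change of case marks the joint. They begin with the nuclear circRNA with the most reads, in AT2G01008, and the leading one of AT5G09700. The exon of CP5 with the most reads among circRNAs on exon boundaries follows. Then come the leading circRNA of the non-coding RNA AT1G15405 and the leading intergenic circRNA on chromosome 2. The leading chloroplast circRNA, listed under psbJ, comes last.
Ath_circ_FC002130 (AT2G01008): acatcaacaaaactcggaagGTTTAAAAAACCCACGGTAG
Ath_circ_FC003443 (AT5G09700): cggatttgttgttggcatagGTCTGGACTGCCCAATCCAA
Ath_circ_FC001341 (CP5): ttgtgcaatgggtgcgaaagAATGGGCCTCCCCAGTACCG
Ath_circ_FC000641 (AT1G15405): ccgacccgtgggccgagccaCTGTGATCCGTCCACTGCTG
Ath_circ_FC003370 (intergenic): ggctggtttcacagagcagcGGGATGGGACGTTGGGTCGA
Ath_circ_FC002509 (psbJ): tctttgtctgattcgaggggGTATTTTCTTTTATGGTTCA

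In the genome these ends lie next to the bases that mark introns. The sequences below are those of TAIR10, taken from RefSeq as all others here, and show, for the same circRNA of CP5, the 12 bases before its first base and the 20 after, then its last 20 bases and the 12 that follow, with the flanking AG and GT in capitals.
CP5, start of the circRNA: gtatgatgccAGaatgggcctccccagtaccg
CP5, end of the circRNA: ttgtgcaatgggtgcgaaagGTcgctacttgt
All 1169 nuclear and chloroplast circRNAs (100%, Wilson 95% interval 99.7 to 100) had AG directly before and GT directly after, read on the listed strand. The calling program looks for joints with these bases by default, so this share shows that coordinates and sequence match and says nothing about splicing in the plant. Chloroplast introns are not removed by the spliceosome, and the chloroplast circRNAs carried the same bases at their ends. Intervals here and below cover counting error only, and circRNAs of 1 gene are not independent of each other.

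The library held 8987 back-spliced reads. A circRNA had a median of 4 reads (quartiles 2 and 6) and a mean of 7.38, and the highest had 413. At the threshold of 2 reads stood 333 circRNAs (27.4%, 24.9 to 29.9), while 176 had at least 10 reads, 21 at least 50 and 8 at least 100. The 10 highest circRNAs together carried 1569 reads (17.5%), and the 100 highest 44.3%. Support was thus thin for most circRNAs and concentrated on a few.

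Even counts were more frequent than odd ones. The library listed 333 circRNAs with 2 reads, 131 with 3, 238 with 4, 97 with 5, 121 with 6, 39 with 7 and 67 with 8. Of all circRNAs, 71.7% (69.1 to 74.1) had an even count. The share was 74.2% among nuclear, 55.9% (48.9 to 62.7) among chloroplast and 83.3% among mitochondrial circRNAs. The sources used here do not say whether the mates of a read pair that cross the same joint were counted once or separately. A count of 2 reads, the threshold of the list, may therefore stand for 1 RNA fragment or 2, and this holds for all read counts given here.

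**Figure D1:**
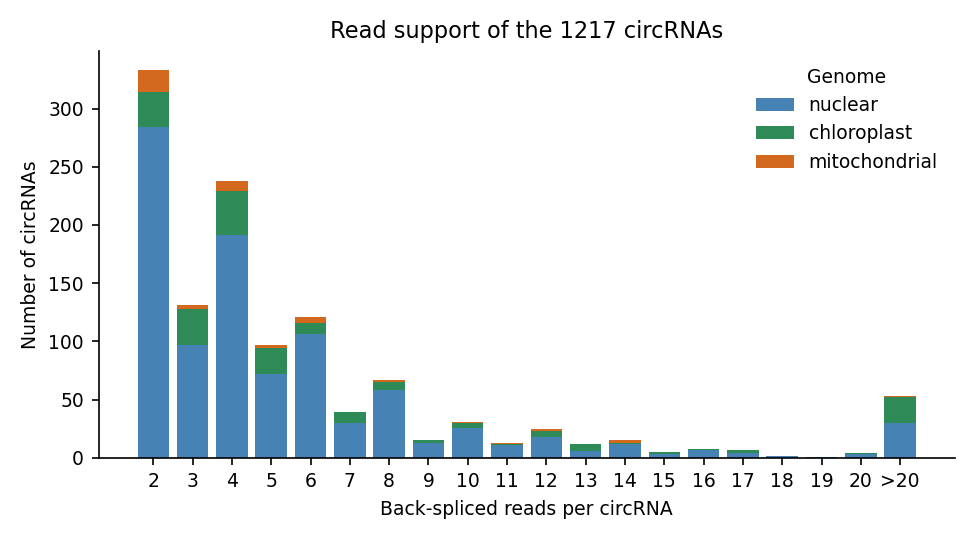
The number of circRNAs (y axis) is plotted for each number of back-spliced reads (x axis, with all above 20 in the last bar), stacked by genome. The bars at 2, 4, 6 and 8 reads (333, 238, 121 and 67 circRNAs) are higher than those at 3, 5 and 7 (131, 97 and 39).

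The nuclear chromosomes gave 974 circRNAs (80.0%) with 6619 reads, the chloroplast 195 (16.0%, 14.1 to 18.2) with 2118 reads, and the mitochondrion 48 (3.94%) with 250 reads. The chloroplast carried a larger share of the reads (23.6%) than of the circRNAs. Its circRNAs had the same median of 4 reads as the nuclear ones, but a mean of 10.9 against 6.80. Per Mb of sequence, chromosome 2 held the most of the nuclear chromosomes (9.34), followed by 5 (9.05), 1 (8.41) and 3 (7.63), and chromosome 4 held the fewest (5.97). The chloroplast genome, of 154478 bp, held circRNAs at a rate of 1262 per Mb. Chromosome 4 was also the one whose highest circRNA was lowest, with 17 reads for exon 3 of 9 of RGTA1, against 71 to 413 on the other nuclear chromosomes.

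Plus and minus strand were almost equally frequent, with 612 circRNAs on plus (50.3%, 47.5 to 53.1). The mitochondrion differed, with 11 of 48 on plus (22.9%, 13.3 to 36.5). Of its circRNAs on minus, 10 overlapped in 1 locus (11317 to 12095) and 7 in another (361844 to 362140), neither of which had any on plus. On chromosome 1 there were 146 on plus and 110 on minus, of which AT1G15405 alone supplied 29 on plus and 4 on minus. On chromosome 2 the numbers were 74 and 110.

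**Figure D2:**
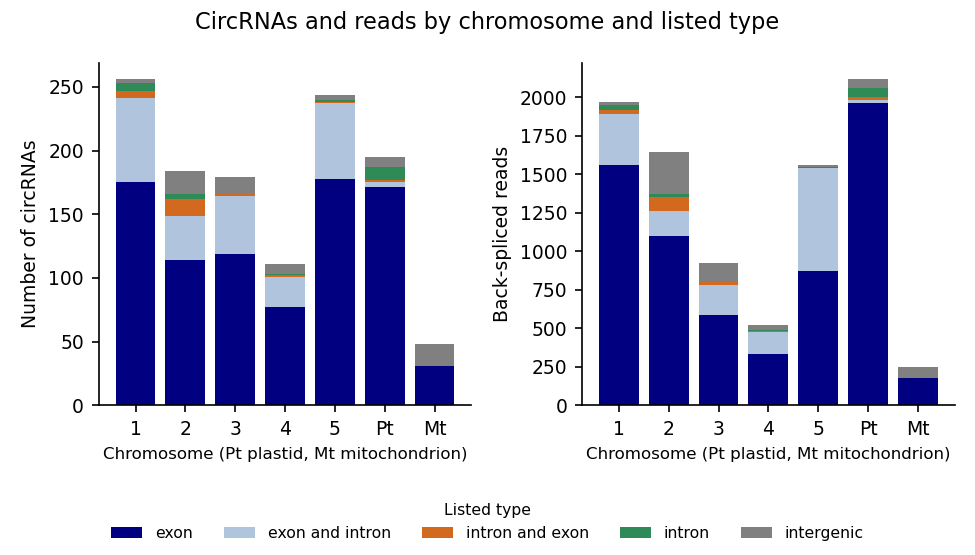
CircRNAs (left, number) and back-spliced reads (right) are plotted for nuclear chromosomes 1 to 5, the chloroplast (Pt) and the mitochondrion (Mt), stacked by listed type. The chloroplast has fewer circRNAs than chromosome 1 (195 against 256) and more reads (2118 against 1972).

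By the type listed for each circRNA, 865 were exonic (71.1%, 68.5 to 73.6), 233 were exon with intron (19.1%), 26 intron with exon, 23 intronic and 70 intergenic (5.75%). With exon and intron types joined, 92.4% of circRNAs and 92.0% of reads touched an exon. Exonic circRNAs spanned a median of 161 bp and those with exon and intron 371 bp. The highest nuclear circRNA listed as intronic was Ath_circ_FC001013 in AT1G56190, with 9 reads. In the chloroplast, the highest intronic one was Ath_circ_FC000631 in petD, a subunit of the cytochrome b6f complex, with 15 reads.

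The genomic span, from the first to the last base of the circRNA, had a median of 178 bp (quartiles 143 and 272). It was at most 200 bp for 723 circRNAs (59.4%). The shortest was Ath_circ_FC001692 in AT4G35750 with 95 bp and 2 reads, followed by Ath_circ_FC002249 in ELP with 100 bp and 4 reads and Ath_circ_FC002632 in AT4G29735 with 101 bp and 2 reads. The last of these had both ends on exon boundaries. At the other end, 76 circRNAs spanned more than 1000 bp and 28 more than 10000 bp. Of these 28, 24 lay on the chloroplast genome and 4 on nuclear chromosomes. The 3 longest were Ath_circ_FC000227 with 98324 bp, Ath_circ_FC000487 with 96776 bp and Ath_circ_FC003279 with 79613 bp, each with 4 or 5 reads.

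The ends of the 974 nuclear circRNAs were set against the annotated exons. Both ends lay on exon boundaries for 429 (44.0%, with 2743 reads), 1 end for 45 (4.62%) and neither for 500 (51.3%, with 3683 reads). Among nuclear circRNAs listed as exonic, both ends were on boundaries for 292 of 663 (44.0%, 40.3 to 47.8). The median was 4 reads with both ends on boundaries and 4 with neither, but the highest circRNA had 75 reads in the first class and 413 in the second. The median span was 192 bp and 164 bp. By chromosome, the share with both ends on boundaries lay between 32.6% on chromosome 2 and 51.6% on chromosome 5.

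**Figure D3:**
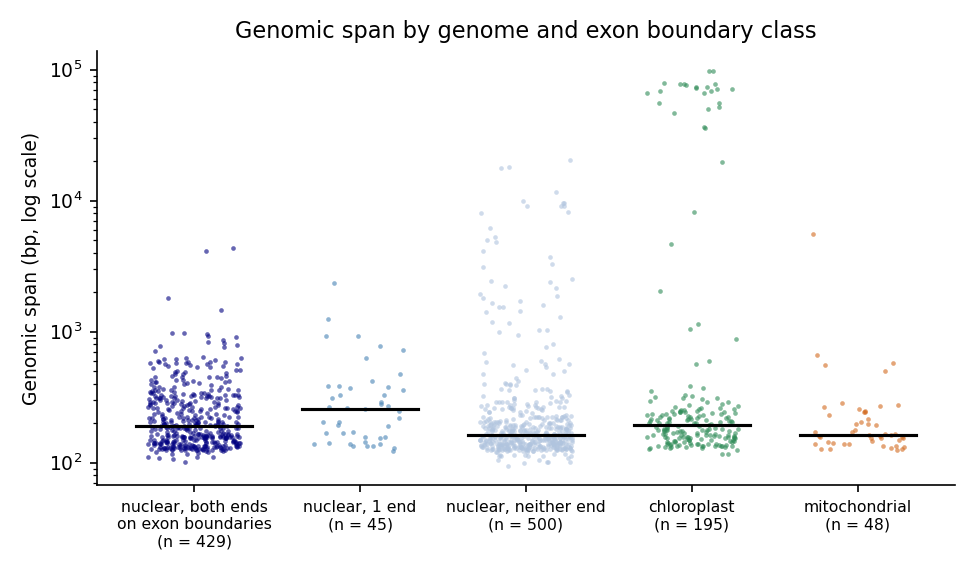
Each point is 1 circRNA, with its genomic span in bp on a log axis, and black lines mark medians. From left to right the medians are 192, 258, 164, 195 and 163.5 bp, and spans above 10000 bp are seen in nuclear circRNAs with neither end on a boundary and in the chloroplast.

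CircRNAs with both ends on boundaries were mostly single exons. Of 426 whose ends fell in 1 annotated transcript, 294 (69.0%) held 1 exon, 95 held 2, 29 held 3 and 8 held more. Where transcripts differed, the one with the fewest exons between the ends was used. Of the 294, 289 were listed as exonic. None began at the first exon of a transcript and 1 ended at the last (Ath_circ_FC000400 in AT2G31902, 10 reads). The required AG and GT flanks leave out most first and last exons by construction. Exon 2 was the first exon of 78 (18.3%), and the transcripts had a median of 10.5 exons. The spliced length, the sum of the exons held, had a median of 179.5 bases.

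The circularised exons were longer than most exons of the same genes, with a median of 158 bases (quartiles 136 and 197) for the 294 single exons against 115 (81 and 168) for 4481 internal exons. This difference disappeared once short exons were left out. Among the 2685 internal exons at least as long as the shortest single-exon circRNA, 101 bases, the median was 156 (125 and 212). The introns next to the circRNAs were short, with a median of 86.5 bp upstream (77 and 144.5) and 94 bp downstream (80 and 157), against 98 bp (84 and 162) for 4894 introns of these genes.

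CP5 (AT1G64720), described as a polyketide cyclase and lipid transport family protein, was the nuclear gene with the most circRNAs on exon boundaries. Ath_circ_FC001341, whose joint is shown above, is its exon 3 of 6 (chromosome 1, 24047787 to 24047963, minus strand, 177 bp) and had 75 reads. Exons 3 and 4 together had 12 reads, exon 2 had 8, and exons 3 to 5 had 3. All but that of exon 2 shared the upstream end of exon 3, so that the single exon led by a wide margin. The remaining circRNA of the gene, listed as intronic, was off the boundaries and had 4 reads.

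Other genes with many reads on a boundary circRNA were named after their values were seen. AT3G29185 had 71 reads for exon 6 of 7 (144 bp), AT2G48100 had 64 for exon 7 of 9 (189 bp) and HOS1, a ubiquitin ligase of the cold response, had 62 for exon 3 of 11 (135 bp). AT5G04090 had 58 reads for a circRNA of 503 bp listed as exon with intron, which was exon 3 of 6 in the transcript used. AT1G02080 had 36 reads for exons 36 and 37 of 50, and 8 for exon 36 alone. NDA1, an alternative NADH dehydrogenase of mitochondria, had 34 reads, AAE14 of phylloquinone synthesis had 32 and AGO1, the main effector of plant microRNAs, had 31 for exon 4 of 23. PAC, needed for chloroplast development, had 20 for exon 3 of 7. These genes had a single prominent circRNA each, and of 407 genes with a boundary circRNA only 19 had more than 1. In 9 of the 19 at least 2 of the circRNAs shared a start or end, and in the other 10, among them AT1G79990 with 3 and NRAMP1 and CESA5 with 2 each, none did. Shared ends were seen for exon 2 alone (14 reads) and exons 2 and 3 (5 reads) of Lhca5, an antenna protein of photosystem I, and for exons 4 and 5 (7 reads) and exon 4 alone (6 reads) of IAA9, a repressor of auxin responses.

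The listed strand separated the classes. Of the circRNAs with both ends on boundaries, 428 of 428 were on the strand of the gene listed as best match, which the matching of boundaries by strand brings about. With neither end on a boundary, 240 were on the strand of the gene and 215 of 455 on the opposite one (47.3%, 42.7 to 51.8). These 215 carried 2094 of 3228 reads (64.9%). This read share rests largely on few circRNAs. AT1G15405 alone gave 572 of the opposite reads, and Ath_circ_FC002130, Ath_circ_FC003443 and Ath_circ_FC000640 gave 413, 195 and 138. The joints of these named circRNAs also match the genome without a back-splice, with at most 1 differing base. The median was 4 reads on either strand, and the highest circRNA on the strand of the gene had 27. The read share was not computed without them. Without AT1G15405, 186 of 422 circRNAs were opposite (44.1%, 39.4 to 48.8). An annotated gene on the listed strand overlapped 10 of the 215 (4.65%). Libraries of this study were strand-specific by its methods, but whether the listed strand follows the reads or the AG and GT bases was not tested.

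**Figure D4:**
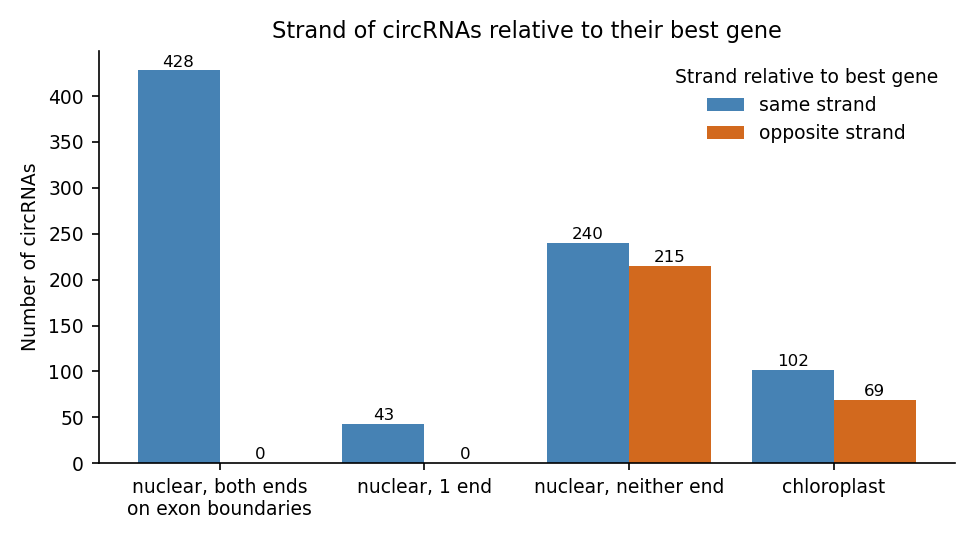
Bars give the number of circRNAs on the same and on the opposite strand as their best gene, for 3 classes of nuclear circRNAs and for the chloroplast. The opposite strand holds 0 of 428 with both ends on boundaries, 215 of 455 with neither and 69 of 171 in the chloroplast.

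CircRNAs off the boundaries also lay over each other. A partner on the other strand, overlapping by at least 50% of both intervals, was listed for 83 of 500 (16.6%) with neither end on a boundary, for 0 of 429 with both (which allows up to 0.699%), and for 107 of 195 (54.9%) in the chloroplast. A start or end was shared with another circRNA by 92 of 500 (18.4%), 24 of 429 (5.59%) and 98 of 195 (50.3%) in these classes. Most circRNAs of both main nuclear classes lay inside 1 annotated exon, 375 of 500 (75.0%) with neither end on a boundary and 298 of 429 (69.5%) with both. The intervals of these shares overlap (71.0 to 78.6 and 64.9 to 73.6).

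The bases around both ends can be the same, in which case the joint may equally be placed elsewhere within the shared run. A shared run alone does not show that a read matches the genome without a back-splice. A shared run of at least 6 bases was found for 63 of 500 circRNAs (12.6%) with neither end on a boundary, for 14 of 429 (3.26%) with both, and for 14 of 195 (7.18%) in the chloroplast. For 11 nuclear circRNAs the run was over 30 bases, and the longest was 129. The 60 bases across each joint were also searched in the genome. For 21 of 974 nuclear circRNAs they matched a contiguous stretch with at most 3 differing bases, 10 of them exactly, and these 21 carried 864 reads (13.1% of nuclear reads). All 21 had neither end on a boundary, and 0 of 195 in the chloroplast did so. Reads across these joints also match the genome without a back-splice, within that number of differing bases.

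Among the 21 were the leading nuclear circRNAs. Ath_circ_FC002130, with 413 reads, lies on chromosome 2 from 2637 to 2946 on the minus strand, opposite to the protein-coding gene AT2G01008. It lies 760 bp from AT2G01010, annotated as ribosomal RNA. Its ends share 32 bases, and the joint differed from the genome by 1 base. The study also examined this circRNA by PCR with divergent primers, which was not analysed here. The same stretch, on the plus strand of TAIR10, stands at chr2:2625-2656 and again at chr2:2935-2966.
Shared stretch of Ath_circ_FC002130: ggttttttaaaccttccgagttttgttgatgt

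Ath_circ_FC003443 with 195 reads and Ath_circ_FC000640 with 138 reads, on chromosome 5 from 3005360 to 3015023 and from 3005411 to 3015074, both span 9664 bp on the plus strand. They run from AT5G09700, a glycosyl hydrolase family gene on the minus strand, to BXL3, a beta-xylosidase gene also on minus. Annotated genes AT5G09710, AT5G09711 and AT5G09720 lie whole inside both intervals. The stretch of 59 bases below stands in both genes, at chr5:3005357-3005415 and chr5:3015021-3015079, and both joints matched the genome exactly.
Shared stretch of Ath_circ_FC003443: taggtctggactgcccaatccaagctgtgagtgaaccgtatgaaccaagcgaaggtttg

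The others of the 21 had at most 37 reads. Ath_circ_FC000266, intergenic on chromosome 3 with 8072 bp, had 37. The pseudogene AT1G43740 had 3 with spans of 9123 to 9137 bp and 5 to 16 reads, and AT3G41762, beside another ribosomal RNA gene, had 2 of 312 bp with 12 and 5 reads, 1 on either strand. EPR1, an extensin-like gene, and DOT1 held 3 with 2 reads each. Without the 21 the 10 highest circRNAs carried 12.7% of reads in place of 17.5%.

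A gene was listed for 1147 circRNAs, which came from 830 parent genes, 773 nuclear, 47 chloroplast and 10 mitochondrial. More than 1 circRNA was listed for 95 genes (11.4%, 9.46 to 13.8), and these held 412 circRNAs. The share was 70 of 773 among nuclear and 22 of 47 among chloroplast genes, and 14 genes had more than 5. Protein-coding genes made up 788 of the 830. Most genes thus gave 1 circRNA.

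**Figure D5:**
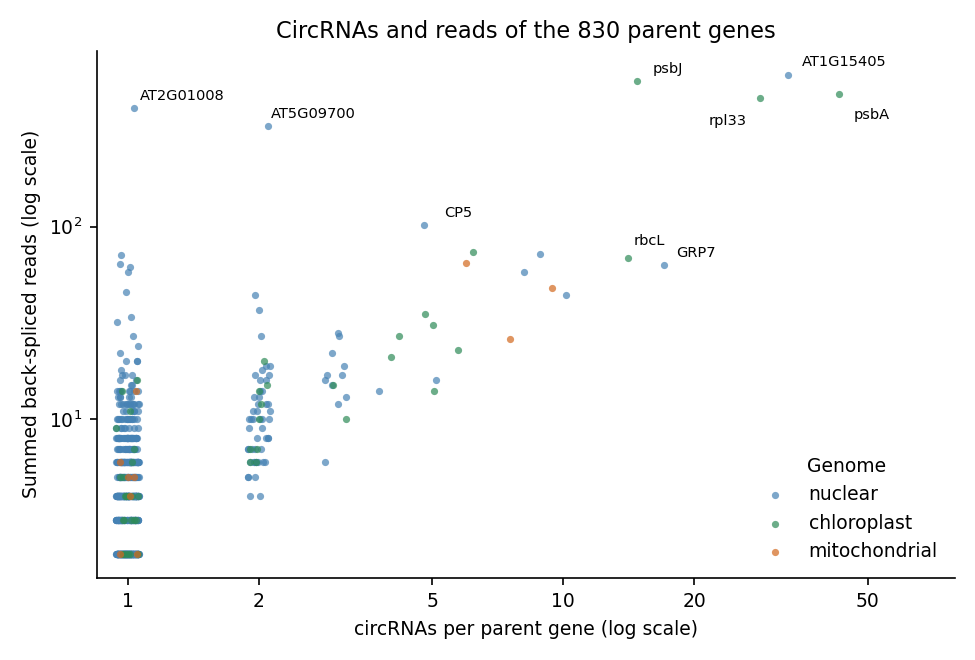
Each point is 1 of the 830 parent genes, with its number of circRNAs (x axis, log scale, points spread slightly sideways) and summed back-spliced reads (y axis, log scale), coloured by genome. AT2G01008 reaches 413 reads with 1 circRNA, and psbA 487 reads with 44.

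Joining overlapping circRNAs of at most 10000 bp gave 908 loci, 838 with 1 circRNA. The 15 loci with at least 5 held 220 circRNAs and 2906 reads (32.3%), and 23 loci had both strands. The densest nuclear locus was AT1G15405, an annotated non-coding RNA of 292 bp on the minus strand. Its 33 circRNAs lay between 5297892 and 5298178 of chromosome 1 with 615 reads, 572 of them on the plus strand. They used 15 different starts and 9 different ends, spanned a median of 181 bp and were all off the exon boundaries. The highest were Ath_circ_FC000641 with 112, Ath_circ_FC000191 with 109 and Ath_circ_FC000901 with 100 reads, all on plus. Their ends shared at most 3 bases, unlike those of the circRNAs with contiguous matches.

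The next nuclear locus had no gene in the list. On chromosome 2 from 17224510 to 17224775, 15 intergenic circRNAs carried 257 reads, 7 circRNAs with 160 reads on plus and 8 with 97 reads on minus. The highest was Ath_circ_FC003370 with 62 reads. In the RefSeq annotation of TAIR10.1 this place is covered by RR3, a response regulator of cytokinin signalling, on plus and by the long non-coding RNA AT2G09250 on minus. Of the 45 nuclear circRNAs listed as intergenic, 28 (62.2%, 47.6 to 74.9) overlapped a gene of that annotation on their own strand. The 15 of this locus are among the 28, because RR3 covers it on plus and AT2G09250 on minus. The share thus rests largely on this locus and was not computed without it.

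GRP7 (AT2G21660), a glycine-rich RNA-binding protein under control of the circadian clock, had 17 circRNAs with 63 reads, and the highest had 9. Of these, 15 lay within 371 bp. In contrast to AT1G15405, 16 of 17 were on the strand of the gene, and the ends shared a median of 5 bases. The pseudogene AT5G55896, annotated as a transposable element gene, had 10 circRNAs with 44 reads, 8 of them opposite to the gene. AT2G31141 had 9 with 72 reads, 7 on its strand. AT5G53440 had 8 with 58 reads, all on its strand.

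In the chloroplast, psbA, psbJ and rpl33 carried most of the reads. The gene psbA encodes the D1 protein of photosystem II and psbJ a small subunit of the same complex, while rpl33 encodes a protein of the plastid ribosome. The list gave psbA 44 circRNAs with 487 reads, 24 of them opposite to the gene, and the highest, Ath_circ_FC000939, had 104 reads on the strand of the gene. It gave psbJ 15 with 570 reads, of which Ath_circ_FC002509 (63455 to 63584, 130 bp) had 251 and Ath_circ_FC001693, with the same lower coordinate and 166 bp, had 72. The gene rpl33 had 30 with 464 reads, 26 on its own strand. The gene itself is 201 bp long and psbJ 123 bp, so many of these circRNAs reach beyond the coding segment. Annotated psbJ runs from 63538 to 63660, so most of Ath_circ_FC002509 lies outside the gene under which it is listed.

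Starts and ends were reused at these places. In the locus of rpl33, 32 circRNAs used 19 starts and 11 ends, with 445 reads on plus and 58 on minus. In the main locus of psbA (329 to 944), 30 circRNAs were divided into 14 on plus with 102 reads and 16 on minus with 316 reads. Over all chloroplast circRNAs with a strand match, 102 of 171 were on the strand of the gene (59.6%) and 69 opposite (40.4%), and the opposite ones carried 494 of 1972 reads (25.1%). No chloroplast circRNA had both ends on a boundary of a coding segment (0 of 195, which allows up to 1.54%). Coding segments of chloroplast genes are mostly single, so this number could hardly be otherwise.

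Of the chloroplast circRNAs over 10000 bp, 10 were listed under psbA, 3 under psbJ, 2 under rbcL and 1 under rpl33, the genes that also had the most short ones. Of 85 annotated protein-coding genes of the chloroplast, 39 (45.9%) had a circRNA. By complex, photosystem genes of the chloroplast led in reads, with circRNAs for 10 of 20 genes, 83 circRNAs and 1211 reads (13.5% of the library). Besides psbA and psbJ, the photosystem II subunits psbK had 6 circRNAs with 74 reads and psbC 6 with 23. Ribosomal protein genes followed with 9 of 21 genes, 43 circRNAs and 543 reads, where rps14 came after rpl33 with 35 reads. The gene of the large subunit of Rubisco, rbcL, had 14 circRNAs but 69 reads, and its highest had 10.

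The remaining complexes had few. For the cytochrome b6f complex and ATP synthase, 8 of 12 genes had 14 circRNAs with 68 reads, 10 of them opposite to the gene, led by petD with 27 and atpF with 12 reads. The NDH complex of cyclic electron flow had 3 of 11 genes with 10 reads, all opposite. The plastid RNA polymerase had 3 of 4 genes with 43 reads, of which rpoA had 31. Chloroplast tRNA genes had 16 circRNAs in 8 of 21 genes with 89 reads. A list of 3 ribosomal RNA genes had 0 with a circRNA, after depletion of ribosomal RNA. Among parent genes matched to the reference, 1 annotated as ribosomal RNA, outside this list, had 1 circRNA.

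In the mitochondrion, where no sequence of the listed build was used, the ribosomal RNA gene RRN18 had 10 circRNAs with 48 reads, all on the minus strand. The highest mitochondrial circRNA was Ath_circ_FC001501 at 11961 to 12086 as listed, in ATMG00030, with 33 reads. The highest intergenic one, Ath_circ_FC002321, had 12.

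Among all 27444 annotated nuclear protein-coding genes, 749 (2.73%) had at least 1 circRNA, and the counts of the following gene lists stand beside that share. No list was tested against it. Of 36 genes for light harvesting and photosystems, 8 had a circRNA, with 9 circRNAs and 40 reads. Only 1 of the 9 was on exon boundaries, and 5 were on the strand of the gene. LHCB3, an antenna protein of photosystem II, led within the list with 2 circRNAs and 14 reads. Lhca5, named above, was not in the list and had 3 circRNAs with 22 reads, 2 of them on boundaries. Of 23 genes of the Calvin cycle and photorespiration, 10 had 18 circRNAs with 59 reads, 5 on boundaries. RCA, which activates Rubisco, had 3 with 12 reads, GLDP1 of the glycine cleavage system 2 with 8 reads, and HPR, the peroxisomal hydroxypyruvate reductase, 2 with 7 reads, both on boundaries.

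Root markers gave 0 of 12 genes and flower markers 0 of 11. At 2.73% of all genes, lists of this size would mostly hold no gene with a circRNA or 1, so these counts say nothing about the organs. Of 12 seed genes, CRU3, a storage protein, had 1 circRNA with 4 reads. Of 11 genes of senescence, RNS2, a ribonuclease, had 1 with 16 reads, opposite to the gene, and NYC1, a chlorophyll b reductase, 1 with 3 reads on boundaries. Such lists show where circRNAs were called and cannot show which organ the RNA came from. Of 29 splicing factor genes, 4 had circRNAs, beside 2.73% of all, and 63 of their 75 reads were those of GRP7. SCL30, an SR protein, had 8 reads, SUA 2 and SC35 2. The list is partial. Outside it, the splicing factor gene SUS2 had 1 circRNA with 4 reads. The U5 ribonucleoprotein helicase gene AT2G42270 had 1 with 8 reads, and each was opposite to its gene. Of 16 clock genes, AT3G54500 had 12 reads and PRR5, a repressor of morning genes, 6, each for 1 circRNA on exon boundaries and on the strand of the gene.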

How the data were processed

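Ribosomal RNA was depleted and linear RNA digested with RNase R before sequencing. The authors filtered the reads, aligned them to TAIR10 with TopHat2 and Bowtie2 and called circRNAs with find_circ, requiring at least 2 unique back-spliced reads. The submitters' processing notes name CASAVA 1.8, TopHat2 and bedtools. The deposited counts are whole back-spliced reads, not normalized. A scaled column, fixed at 3.29 per read, was not used. In the deposited list of all samples the authors gave a score, headed as a mean of junction reads, which equalled the library's count for all 1217 circRNAs and was used only for that check.

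Listed starts count from 0, and 1 was added. Sequences and annotation were taken from RefSeq's TAIR10.1, identical to TAIR10 for the nucleus and the chloroplast. The mitochondrial sequence differs and was not used. Genes matched the reference for 1097 of 1147 circRNAs. Exon boundaries were those of all transcripts on the listed strand. For joints, 30 bases from either side were searched in the genome without gaps. A shared run is the stretch of identical bases through which both ends can be moved together. Shares have Wilson 95% intervals for counting error, and read shares and medians have none in the text. A count of 0 allows up to 3 counts. The total of 8987 counts back-spliced reads of the listed circRNAs and is not the sequencing depth. No test was run, since each condition had 1 library.

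Named circRNAs were the 10 with the most reads, the highest of each chromosome and of each type in each genome, the 3 longest and the 3 shortest. Named genes were the 10 with the most circRNAs, the 10 with the most reads, and up to 4 with the most reads in each list. Exceptions are said to be so. The circRNAs and gene lists were chosen with earlier results of these data known. Alternatives required 3 or 5 reads, limited the span, kept nuclear chromosomes, left out psbA or relaxed the matching. Joining types with an exon, leaving out contiguous matches and leaving out AT1G15405 were chosen after seeing the data. Calculations were tested on simulated data and were run in Python 3.11.15 (scipy 1.17.1, pandas 2.3.3, numpy 2.4.6). Figures were drawn with matplotlib 3.10.9.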

Additional observations from a re-analysis of the deposited data

How the results depend on the processing

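Over 89 values under alternative settings, 64 stayed within the 95% interval of the value reported and 25 moved out of it. For shares of reads this interval took reads as independent, although reads of 1 circRNA are not. Some outcomes were also fixed in advance. The AG and GT share, and the nuclear boundary share without organelles or psbA, could not move. Median reads under a higher threshold and the share with any exon counted could only rise. The counts of 64 and 25 are thus no measure of stability. With nuclear chromosomes only, the exonic share was 68.1% of circRNAs and 67.2% of reads, the 10 highest circRNAs held 20.2% of reads, 9.06% of parent genes had more than 1 circRNA and 76.8% of circRNAs were on the strand of their gene. With at least 3 reads the chloroplast share was 18.7% of circRNAs and 24.7% of reads, the 10 highest held 18.9% and the median was 5 reads. With at least 5 reads these were 18.6%, 26.0%, 22.5% and 8 reads, and 50.7% of nuclear exonic circRNAs had both ends on exon boundaries. Spans of at most 10000 bp gave a chloroplast read share of 22.5%. Without psbA, the gene with the most circRNAs, the chloroplast share was 12.9% of circRNAs and 19.2% of reads, and the exonic read share 71.8%. With any exon counted as exonic, the exonic share was 92.4% of circRNAs and 92.0% of reads. Without contiguous matches the exonic read share was 75.4%, the chloroplast read share 26.1% and the 10 highest held 12.7%. Without AT1G15405 the exonic read share was 71.4% and the chloroplast read share 25.3%. The plus strand share and the median span stayed within their intervals under every setting run. The AG and GT share did so by construction. No paired analysis was possible because each condition had 1 library.

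With 1 library, no value has a replicate error, and 27.4% of circRNAs rest on 2 reads, with the counting of mates unknown. Pooling removes any information on stage and organ. RNase R and the calling threshold shape which circRNAs are seen. Joint placement is uncertain where ends share bases, and strand rests on the listed value. Genes with few or no back-spliced reads in this library cannot be called free of circRNAs.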
